A study of Caenorhabditis elegans with 4 samples.

Results

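Genes named ttr- followed by a number encode the transthyretin-like proteins of *C. elegans*, and they were examined here in sorted embryonic body-wall muscle cells of *mir-1* mutant and wild-type animals. The count table held 50 such genes among 14463. Members were selected by name, and the 32 with 10 or more unique molecular identifier (UMI) counts over all 4 libraries were chosen by that total to be described singly. ttr-7, ttr-25 and ttr-43 lay just inside this limit with 10 UMI counts each, and ttr-10, ttr-21 and ttr-26 just outside it with 8 each. ttr-16 had also drawn attention in an earlier fit of the same libraries, so its values in mutant and wild type are a description.

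Mutant cells came from strain MLC2277, which carries the allele mir-1(luc108) on chromosome I, a deletion of the hairpin of the muscle microRNA miR-1, and wild-type cells from strain MLC2232. Both strains carried the same extrachromosomal array, lucEx1207, in which the promoter of the muscle myosin gene myo-3 drives a yellow fluorescent protein (YFP). Embryos, most of them at the 1.5-fold stage, were dissociated, and 5000 YFP-positive cells were sorted for each of 2 mir-1(luc108) and 2 wild-type libraries. QuantSeq primes on the poly(A) tail and gives a single tag near the 3′ end of each transcript, so counts scale with the number of transcripts whatever their length. The study's supplement calls the 2 libraries of a genotype biological duplicates, although neither it nor the labels say whether they came from separate cultures. The p-values set a difference between genotypes against the spread between these libraries, which is estimated in part from all genes tested.

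Transthyretin-like proteins form a large family in nematodes. They are small proteins, mostly secreted, with a fold like that of vertebrate transthyretin, a carrier of thyroid hormone, and few have a known role. TTR-52 is a secreted bridge that binds phosphatidylserine on dying cells and the receptor CED-1 on the cells that engulf them, and TTR-33 protects dopaminergic neurons against oxidative stress.

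The libraries held 453341 and 343227 UMI counts in mir-1(luc108) and 245336 and 424968 in wild type, on 10169 to 11916 genes. All 10 body-wall muscle markers were present, with summed levels of 16805 and 15326 CPM (UMI counts scaled to 1000000 counts on the genes tested in each library, with TMM factors) in mir-1(luc108), against 22934 and 21184 CPM in wild type. Other cells were represented too. The 12 epidermal markers in the table summed to 3247 and 3514 CPM in mir-1(luc108), against 3253 and 3099 CPM in wild type, although bli-1, a cuticle collagen, was at 0 in 3 libraries and dpy-8, another, also in 3. Neuronal markers summed to between 521 and 782 CPM in a library, glial markers to between 213 and 240 CPM, intestinal markers to between 115.3 and 423 CPM and pharyngeal muscle markers to between 101 and 318 CPM. The level of a ttr- gene in these libraries is that of the whole sorted pool. In such bulk samples, fewer cells of a type and less RNA per cell cannot be told apart.

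The ttr- genes together took 2764 and 1681 UMI counts in the mir-1(luc108) libraries, against 1695 and 2714 in wild type, or 0.610% and 0.490% of all counts against 0.691% and 0.639%. A few members made up most of this. ttr-16, ttr-6, ttr-36, ttr-35 and ttr-17 held 71.8% of the 8854 ttr- counts, and the 10 most abundant members 90.5%. At the other end, 18 members had between 1 and 8 counts over all libraries, 71 counts in all, and 28 of the 50 were detected in all 4 libraries.

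**Figure D1:**
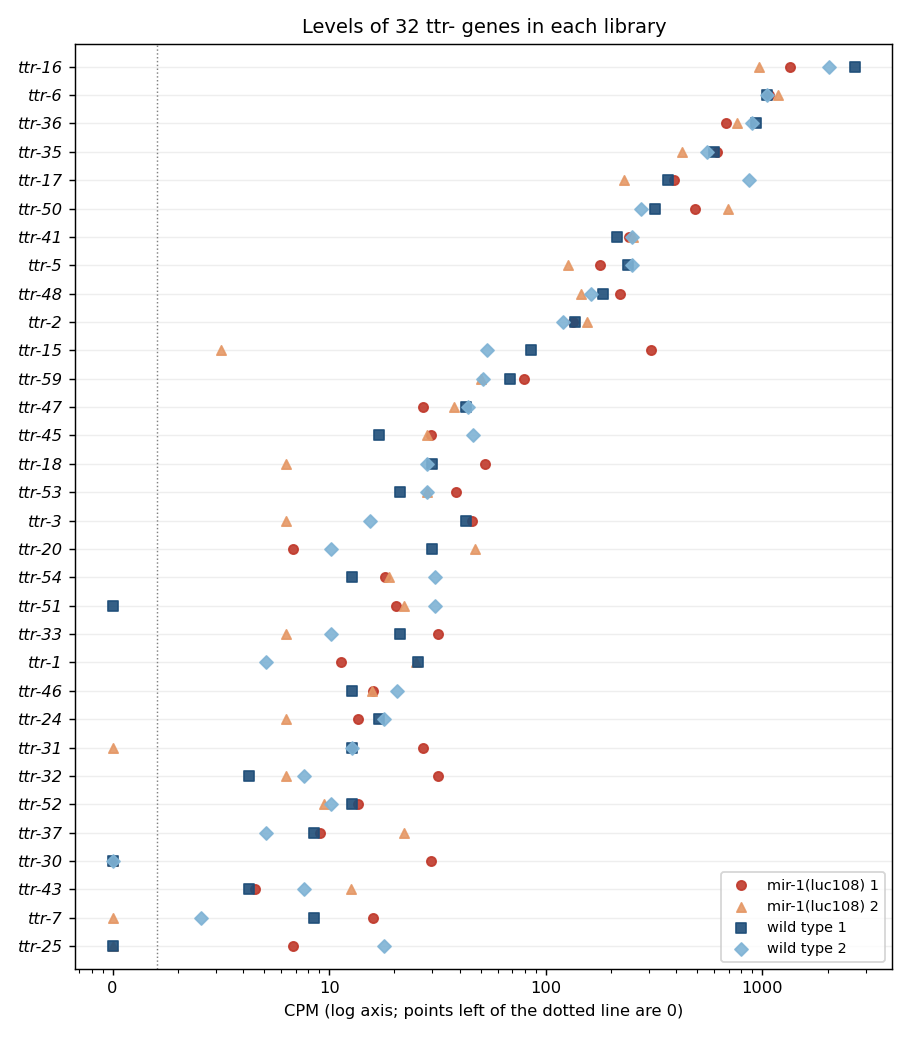
CPM of the 32 ttr- genes with 10 or more UMI counts, by library, on a log axis with zeros drawn left of the dotted line. Genes run from the most to the least abundant by mean level. ttr-16 lies between 963 and 2685 CPM, while ttr-15 spreads from 3.16 to 307 CPM within mir-1(luc108).

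ttr-6 and ttr-16 were the most abundant members in mir-1(luc108). ttr-16 was at 1338 and 963 CPM in mir-1(luc108), against 2685 and 2021 CPM in wild type. ttr-6 was at 1068 and 1181 CPM in mir-1(luc108), against 1054 and 1055 CPM in wild type. Thus ttr-16 was above ttr-6 in both wild-type libraries, while in mir-1(luc108) their order differed between the libraries, with means of 1151 ± 266 CPM for ttr-16 and 1124 ± 79.7 CPM for ttr-6 (SD, n = 2 each). Next came ttr-36, at 677 and 764 CPM in mir-1(luc108), against 935 and 894 CPM in wild type. They were followed by ttr-35, ttr-17 and ttr-50, whose ranges over the 4 libraries all overlapped one another. Below them, ttr-41, ttr-5, ttr-48, ttr-2 and ttr-15 averaged between 144 and 248 CPM in mir-1(luc108), against between 69.6 and 245 CPM in wild type. ttr-59 led the remaining members, with means of 65.0 CPM in mir-1(luc108) and 59.8 CPM in wild type.

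Of the 32 members with 10 or more counts, 18 had enough counts for edgeR's filter and were tested among 5111 genes, and 14 had too few counts. No ttr- gene was called at an adjusted p below 0.05, against 0.0587% of all genes tested (3 genes). At an unadjusted p below 0.05 there were 4 of 18, 1 higher and 3 lower in mir-1(luc108), against 8.2% of all genes tested. DESeq2 called 0 ttr- genes and 0 genes in all, with 101 genes at an unadjusted p below 0.05. Of the 18, 11 had a fold change above and 7 below that of no change. The median log2 fold change of the 18 was 0.097, against 0.0030 over all genes tested, and it became −0.25 when mir-1(luc108) library 1 was left out. The mutant libraries were both higher than either wild-type library for 3 of the 18 (19.5% of all genes tested), and both lower for 4 of the 18 (18.9% of all genes tested).

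**Figure D2:**
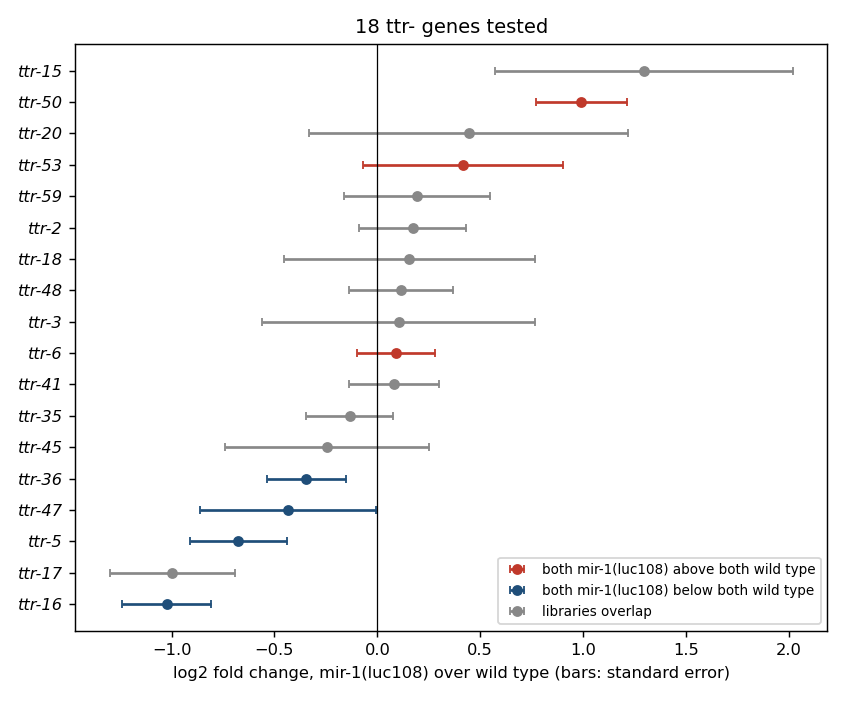
Log2 fold change of mir-1(luc108) over wild type for the 18 ttr- genes tested, with bars for the standard error, ordered from the highest to the lowest value. Red points mark the 3 genes whose mutant libraries were both higher than either wild-type library, dark blue points the 4 whose mutant libraries were both lower, and grey points the 11 whose libraries overlap. ttr-15 has the highest value, with a standard error of 0.72.

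The most abundant member, ttr-16 (WBGene00012382, chromosome IV of WBcel235, 11063530 to 11064137, minus strand), averaged 1151 ± 266 CPM in mir-1(luc108) and 2353 ± 470 CPM in wild type (SD, n = 2 each), a ratio of the means of 0.489. Its UMI counts were 589 and 305 in mir-1(luc108), against 629 and 789 in wild type. In CPM the genotypes did not overlap, and the libraries within each genotype also differed. Its log2 fold change of −1.02 had a standard error of 0.22 and, by the quasi-likelihood test of edgeR, an adjusted p of 0.0971, with rank 8 by p among the genes tested. It lay between −1.29 and −0.81 when any single library was omitted. Its adjusted p became 0.0343 with a minimum count of 20 and 0.0628 from DESeq2, and over all alternatives it lay between 1.04e-07 with a replicate block and 0.995 when mir-1(luc108) library 2 was left out. All 10 body-wall muscle markers also had fold changes below that of no change, with a median log2 fold change of −0.53. Of these markers, 0 were called by edgeR, against 0.0587% of all genes tested. At an unadjusted p below 0.05 there were 7 of the 10, against 8.2% of all genes tested. Their part in the ttr-16 values was not tested.

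ttr-17 (WBGene00012383, chromosome IV, 11066019 to 11067026) lies 1881 bp from ttr-16 on the same strand, with no protein-coding gene between them. It was at 391 and 230 CPM in mir-1(luc108), against 367 and 863 CPM in wild type. The 2 genotypes overlapped, and the second wild-type library stood apart from the other 3. In edgeR its log2 fold change was −0.997, with a standard error of 0.30 and an adjusted p of 0.256. Leaving out the second wild-type library brought it to −0.23, and leaving out the first to −1.46 with an adjusted p of 0.00802. That same second wild-type library had the highest sums of pharyngeal muscle and intestinal markers. The 6 pharyngeal markers summed to 148 and 101 CPM in mir-1(luc108), against 145 and 318 CPM in wild type. Of the 6, 5 were highest in the second wild-type library, and myo-2, a pharyngeal myosin, was at 0 in the first. ceh-22 was instead highest in the first wild-type library, at 76.8 CPM, against 17.9 CPM in the second. The 9 intestinal markers in the table summed to 257 and 284 CPM in mir-1(luc108), against 115.3 and 423 CPM in wild type, with end-1 at 0 in all but the first mir-1(luc108) library and end-3 and pho-1 at 0 in all but the second wild-type library. Of the 9, 5 were highest in the second wild-type library, where end-3 and pho-1 had 2 and 4 counts. elt-2, act-5 and ges-1 were instead highest in the second mir-1(luc108) library, at 25.3, 82.1 and 9.47 CPM. They were at 7.68, 56.3 and 2.56 CPM in the second wild-type library. The protease gene asp-1 contributed 77.3 and 107 CPM of the sums in mir-1(luc108), against 25.6 and 236 CPM in wild type. Without asp-1, left out after seeing the data, the intestinal sums were 179.5 and 177 CPM in mir-1(luc108), against 89.7 and 187 CPM in wild type. The part of these markers in the ttr-17 values was not tested.

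ttr-5 (WBGene00008040, chromosome III, 9330316 to 9330928) and ttr-36 (WBGene00044605, chromosome X, 6510927 to 6512195) also had lower values in each mutant library than in either wild-type library, without passing the test. ttr-5 was at 177 and 126 CPM in mir-1(luc108), against 239 and 251 CPM in wild type, and edgeR gave a log2 fold change of −0.68 with a standard error of 0.24 and an adjusted p of 0.396. For ttr-36 these values were −0.34, 0.19 and 0.711. The wild-type libraries differed little for either gene, with means of 245 ± 8.44 CPM for ttr-5 and 914 ± 29.0 CPM for ttr-36 (SD, n = 2 each). Another gene whose genotypes did not overlap was ttr-47, at 27.3 and 37.9 CPM in mir-1(luc108), against 42.7 and 43.5 CPM in wild type.

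ttr-50 (WBGene00010234, chromosome IV, 11640047 to 11641015) had higher values in mir-1(luc108), again without passing the test. It was at 489 and 691 CPM in mir-1(luc108), against 320 and 274 CPM in wild type, from 215 and 219 UMI counts against 75 and 107. Its ratio of the means was 1.99, and the lower mir-1(luc108) library was still above the higher wild-type library. With edgeR it had a log2 fold change of 0.99, a standard error of 0.22 and an adjusted p of 0.108, with rank 12 by p. Leaving out a library gave log2 fold changes of 0.73 to 1.23. Its adjusted p was 0.0343 with a minimum count of 20, and over all alternatives it lay between 0.00164 with a replicate block and 0.9998 with DESeq2. ttr-50 encodes the longest protein of the 32, with 213 residues and a coding length of 639 bp, against a median of 427.5 bp for these members.

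ttr-6 (WBGene00020886, chromosome X, 6596425 to 6597121) and ttr-53 were above wild type in both mutant libraries by small margins. For ttr-6, edgeR gave a log2 fold change of 0.091 with a standard error of 0.19, the smallest among the 18 genes, and an adjusted p of 0.953. ttr-53 was at 38.6 and 28.4 CPM in mir-1(luc108), against 21.3 and 28.2 CPM in wild type, so that the nearest libraries of the 2 genotypes were almost level.

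The summed level of all 50 members was 6280 and 5307 CPM in mir-1(luc108), against 7236 and 6951 CPM in wild type, a ratio of the means of 0.817. The genotypes did not overlap. ttr-16 made up 21.3% and 18.1% of the ttr- counts in mir-1(luc108), against 37.1% and 29.1% in wild type. With ttr-16 left out, a choice made after seeing the data, the sums were 4942 and 4344 CPM in mir-1(luc108), against 4551 and 4930 CPM in wild type. They then overlapped, with a ratio of the means of 0.979.

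**Figure D3:**
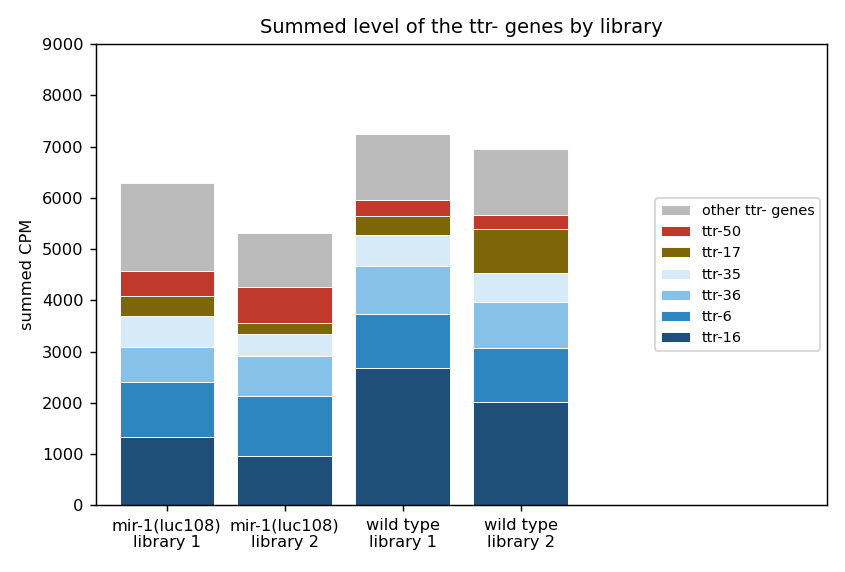
Summed CPM of all 50 ttr- genes in each library, split into the 6 most abundant members and the rest. Totals are 6280 and 5307 CPM in mir-1(luc108), against 7236 and 6951 CPM in wild type, and the ttr-16 segment at the base of each bar is shorter in both mir-1(luc108) bars.

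ttr-15 (WBGene00011561, chromosome III, 10337847 to 10339440) had the widest spread between the libraries of a genotype. Its UMI counts were 135 and 1 in mir-1(luc108), against 20 and 21 in wild type. The 2 mir-1(luc108) libraries thus lay on either side of wild type, the first far above and the second far below. The fitted log2 fold change of 1.30 had a standard error of 0.72 and an adjusted p of 0.711 in edgeR. It became −4.24, with an adjusted p of 0.317, when mir-1(luc108) library 1 was left out, so that 1 library set its sign.

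Other members showed the same contrast between the mir-1(luc108) libraries. ttr-18 had 23 and 2 UMI counts in mir-1(luc108), against 7 and 11 in wild type, and ttr-3 had 20 and 2, against 10 and 6. These 2 genes and ttr-15 were at least 4-fold higher in the first mir-1(luc108) library than in the second, out of 17 ttr- genes with 20 or more counts over these libraries, where each level was raised to at least 3 counts. By the same rule, set after these counts were seen, 47 of 5070 genes were so (0.927%). ttr-18 and ttr-3 reached 20 counts only through the first library, where they are high, so the 3 of 17 is a description. ttr-15 had the second largest such fold of the 5070, 32.4, and ttr-18 and ttr-3 the 21st and 34th. The largest was that of nlp-24, with 448 and 4 counts in these libraries. After ttr-15 came fipr-26, with 110 and 0 counts, and nlp-27, with 99 and 0. In the opposite direction, none of the 17 was 4-fold higher in the second mir-1(luc108) library, and 5 of the 5070 genes were. ttr-20, with 3 and 15 counts in the mir-1(luc108) libraries, lay in that direction with a ratio of the first to the second of 0.144, but its 18 counts kept it out of this comparison. Between the wild-type libraries none of 14 ttr- genes was 4-fold apart in either direction, and 39 and 5 of 4458 genes were higher in the second and in the first. The log2 fold changes of ttr-3 and ttr-18, 0.10 and 0.15, became −2.01 and −2.13 when that library was left out.

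**Figure D4:**
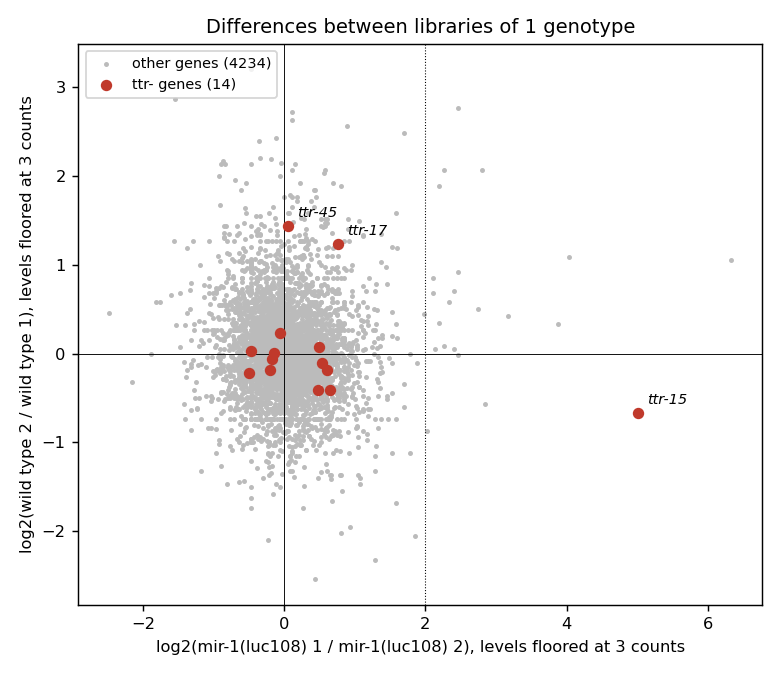
Log2 ratio of the first over the second mir-1(luc108) library (horizontal) and of the second over the first wild-type library (vertical), for genes with 20 or more counts in both pairs and with levels raised to at least 3 counts. Most ttr- genes (red) lie near the origin, while ttr-15, the farthest to the right, differs 32.4-fold between the mir-1(luc108) libraries, and ttr-17 and ttr-45 differ 2.35-fold and 2.70-fold between the wild-type libraries. ttr-18 and ttr-3 had too few counts in wild type to be drawn, and the dotted line marks a 4-fold difference.

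Among the marker lists, the neuronal one was highest in this first mir-1(luc108) library, with 782 CPM there and 606 CPM in the second, against 521 and 666 CPM in wild type, for 13 of 13 markers in the table, of which 7 were highest in it. unc-119 contributed 257 and 205 CPM of these sums in mir-1(luc108), against 145 and 136 CPM in wild type. Without unc-119, left out after seeing the data, they were 525 and 401 CPM in mir-1(luc108), against 376 and 530 CPM in wild type, so that the second wild-type library was then highest. The epidermal list was lower in it than in the second, although 4 of its 12 markers were highest in it. Without sqt-3, left out after seeing the data, the epidermal sums were 1875 and 1929 CPM in mir-1(luc108), against 1772 and 1726 CPM in wild type. The glial list lay at 216 and 240 CPM in mir-1(luc108), against 213 and 218 CPM in wild type. The part of these marker lists in the values of ttr-15, ttr-18 and ttr-3 was not tested.

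The 14 members with 10 or more counts that were not tested held 259 counts together. Their ratios of summed counts between the genotypes carry exact 95% intervals that cover counting error only. ttr-30 was found in the first mir-1(luc108) library alone, with 13 counts there, 0 in the second and 0 in both wild-type libraries. The exact interval of its ratio starts at 2.52, which covers counting error only and rests on this single library. Since ttr-30 passed the limit of 10 counts through that library alone, its interval is only a description. ttr-31 had 12 and 0 counts in mir-1(luc108), against 3 and 5 in wild type, and ttr-7 had 7 and 0, against 2 and 1. ttr-32 had 14 and 2 counts in mir-1(luc108), against 1 and 3 in wild type, a ratio of 3.30 (interval 1.06 to 13.6), and ttr-33 had 14 and 2, against 5 and 4, a ratio of 1.47 (interval 0.611 to 3.77). All of these were highest in the first mir-1(luc108) library, as were 6 of the 14 in all. ttr-7, ttr-31 and ttr-32 too reached the limit of 10 counts only with their counts in that library, so their values are a description. Without that library the log2 ratios of ttr-32 and ttr-33 were −0.020 and −1.19.

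ttr-52, the member with a known part in the clearance of dying cells, had 6 and 3 counts in mir-1(luc108), against 3 and 4 in wild type. The ratio was 1.06, with an interval from 0.352 to 3.35, so no difference was detectable at this depth. The remaining untested members were also spread over both genotypes. ttr-1 had 5 and 8 counts in mir-1(luc108), against 6 and 2 in wild type, and ttr-37 had 4 and 7, against 2 and 2. ttr-24 had 6 and 2 counts in mir-1(luc108), against 4 and 7 in wild type, ttr-25 had 3 and 0, against 0 and 7, and ttr-43 had 2 and 4, against 1 and 3. For ttr-46 the counts were 7 and 5 in mir-1(luc108), against 3 and 8 in wild type, for ttr-51 9 and 7, against 0 and 12, and for ttr-54 8 and 6, against 3 and 12. Of these, only ttr-37 was higher in each mutant library than in either wild-type library, with 9.09 CPM against 8.54 CPM at the nearest, and only ttr-24 was lower in each. The share of all untested genes whose genotypes parted in this way was not computed.

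Engulfment genes were set beside ttr-52. Of 20 genes for the death and engulfment of cells, 12 were tested and 0 were called by edgeR, against 0.0587% of all genes tested. At an unadjusted p below 0.05 there were also 0, against 8.2% of all genes tested. Of the 12, 4 had fold changes above and 8 below that of no change, against 2570 and 2541 of all genes tested. Their median log2 fold change was −0.13. ced-1, the engulfment receptor, had 31 and 23 UMI counts in mir-1(luc108), against 23 and 30 in wild type, and edgeR gave a log2 fold change of −0.26, a standard error of 0.31 and an adjusted p of 0.905. nrf-5, which encodes a secreted lipid-binding protein that acts with TTR-52, had 34 and 12 counts in mir-1(luc108), against 16 and 15 in wild type. ced-7, an ABC transporter, had 12 and 5, against 8 and 9, and ced-6, an adaptor of CED-1, had 11 and 7, against 3 and 9. In each of nrf-5, ced-7 and ced-6 the genotypes overlapped in CPM. R09H10.3 and ZK697.8, which belong to the enzyme branch of transthyretin-related proteins, were low, with 8 and 12 counts in mir-1(luc108) against 5 and 6 in wild type for the first, and 0 and 0 against 0 and 1 for the second.

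For the 7 tested members not yet described, the libraries of the genotypes overlapped. ttr-2 was at 134 and 155 CPM in mir-1(luc108), against 137 and 120 CPM in wild type, and ttr-41 at 243 and 253 CPM, against 213 and 251 CPM. ttr-35 was at 616 and 426 CPM in mir-1(luc108), against 598 and 556 CPM in wild type, and ttr-48 at 220 and 145 CPM, against 184 and 161 CPM. ttr-59, ttr-45 and ttr-20 were scarcer, and ttr-20, with 3 and 15 UMI counts in mir-1(luc108) against 7 and 4 in wild type, had the widest standard error of the 18, 0.77. Adjusted p-values of these 7 genes lay between 0.937 and 0.967.

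The annotation of WBcel235 lists 58 ttr- genes, and 8 of them had no row in the table and were not analysed here. Of the 14463 genes in the table, 0 were without a count in all 4 libraries, and 13211 were matched by symbol. Whether the 8 went undetected was not tested. The 58 are short genes, with a median coding length of 429 bp against 987 bp over all protein-coding genes, a median of 3 exons against 5, and a median 3′UTR of 93.5 bp against 105 bp. By position, 22 lie on chromosome V, 12 on X, 10 on IV, 9 on III, 3 on I and 2 on II. Members with 10 or more counts were 6 of the 22 on chromosome V, against 26 of the 36 elsewhere, and chromosomes IV and X carried 42.6% and 42.5% of all ttr- counts, against 2.17% for chromosome V. Since the count limit itself used these values, this is a description. The 22 and 36 also include the genes without a row in the table. Of those, ttr-11, ttr-12, ttr-13, ttr-19, ttr-40 and ttr-57 lie on chromosome V, ttr-39 on IV and ttr-58 on I. The same shares over all genes of each chromosome were not computed.

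Many members are neighbors. Of the 58, 28 have another ttr- gene as the next protein-coding gene, and so do 16 of the 32 with 10 or more counts. Neighbors could differ widely in level. ttr-35 and ttr-36 lie 89 bp apart on the same strand, and both were abundant, with log2 fold changes of −0.14 (standard error 0.21) and −0.34 (standard error 0.19). ttr-1 and ttr-2 lie 72 bp apart on the same strand of chromosome III, yet ttr-2 had 187 counts in all and ttr-1 had 21. ttr-30 and ttr-59 lie 279 bp apart on chromosome X, and ttr-59 had 35 and 16 counts in mir-1(luc108), against 16 and 20 in wild type, while ttr-30 was found in a single library. The 3 genes ttr-27, ttr-28 and ttr-29 on chromosome V stood at 6, 1 and 5 counts in all.

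Some members overlap other genes on the opposite strand, and the strand setting of the authors' counting is not given in the sources used here. ttr-16 overlaps lin-3 by 239 bp, and lin-3 had 8 and 3 UMI counts in mir-1(luc108), against 1 and 3 in wild type. How reads from the overlap were assigned was not tested. ttr-33 lies wholly inside mig-6, which had 453 and 321 counts in mir-1(luc108), against 296 and 434 in wild type, so the few counts of ttr-33 are uncertain. ttr-33 also overlaps txt-5 by 42 bp, on its own strand. ttr-50 overlaps rbm-17 by 51 bp, ttr-7 overlaps best-17 by 74 bp and ttr-32 overlaps R13A5.7 by 49 bp. The overlap is 12 bp for ttr-43 with C14C10.1, 52 bp for ttr-47 with H14N18.4 and 45 bp for ttr-51 with JC8.7. Sequence identity between ttr- genes was not examined here, so the counts of members that share near-identical stretches with another are uncertain.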

How the data were processed

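UMI counts per gene were deposited by the authors without normalization: UMIs were extracted with UMI-tools, adaptors and the first 4 bases trimmed, reads mapped to WBcel235 with STAR, duplicates discarded with UMI-tools, and genes counted with HTSeq. Versions are not given in the sources used here. Totals per library ran from 245336 to 453341.

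Counts were tested with edgeR 4.0.16 (R 4.3.3) by its quasi-likelihood test, with TMM factors, filterByExpr at a minimum count of 10 and Benjamini-Hochberg adjustment over 5111 genes, without a block. The fold change is mir-1(luc108) over wild type. With 3 ways to divide 4 libraries into pairs, no permutation test can reach 0.05. Genes were matched by symbol to Ensembl 115. Every ttr- gene with 10 or more counts was named. The members and lists were chosen with earlier results of these data known. Alternatives were other size factors, other filters, DESeq2 1.42.0 with and without its fold change prior, a replicate block and leaving out each library, with the genes tested held fixed and a lone library assumed to vary like the others. Leaving ttr-16, unc-119, asp-1 or sqt-3 out of a sum and comparing libraries of a genotype were chosen after seeing the data. The method was tested on simulated data. Sequences of the genes were not used here, so shared reads between paralogs were not checked.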

Additional observations from a re-analysis of the deposited data

How the results depend on the processing

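No ttr- gene was called in the test as reported, and the count was 4 without a filter on low counts, 2 with a minimum count of 20, 0 with DESeq2 and 0 or 1 with a library left out. Those called in some setting were ttr-16, ttr-17, ttr-50 and ttr-15, and ttr-17 was the 1 called without the first wild-type library. Over all genes, 3 were called, and 5 with DESeq2's size factors, 63 without a filter, 12 with a minimum count of 20, 0 with DESeq2 either way (101 and 96 genes at an unadjusted p below 0.05), and 0 to 28 with a library left out (0 or 1 when a mutant library was omitted, 28 for the first wild-type library and 4 for the second). The causes were not tested. Same-numbered libraries of the genotypes are paired by no label and their deviations correlated at 0.013, and with replicate number as a block 87 genes and 3 ttr- genes (ttr-16, ttr-17 and ttr-50) were called. The median ttr- log2 fold change lay between −0.25 and 0.14 with a library left out, negative also without the second wild-type library and with the block. The summed level gave ratios of 0.748 to 0.885 with a library left out, and 0.979 with ttr-16 left out.

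Signs turned in 6 members besides ttr-3, ttr-15 and ttr-18. ttr-3 was −0.11 with DESeq2 without its prior and −0.029 with it, −0.26 with the block and between −2.01 and 0.87 with a library left out. With a library left out, values ran from −4.24 to 2.19 for ttr-15, −2.13 to 0.85 for ttr-18 (−0.15 with the block), −1.37 to 1.38 for ttr-20, −0.44 to 0.098 for ttr-35, −0.022 to 0.21 for ttr-41, −0.66 to 0.75 for ttr-45, −0.24 to 0.37 for ttr-48 and −0.20 to 0.45 for ttr-59. Over the 18 genes, 166 alternative values kept their sign and side of the threshold, 16 changed sign and 10 passed the threshold. The 4-fold limit between libraries was chosen after seeing the data, and 2-fold gave the same 3 genes. The 14 named members that were not tested had 29 counts or fewer each, and the 18 others 8 or fewer.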
